A study of Mus musculus with 8 samples.

Results

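Nfil3, the gene for E4BP4, was followed in mouse liver together with 7 transcription factor genes that share its DNA sites or its place in the circadian clock: Dbp, Tef, Hlf, Bhlhe40, Bhlhe41, Ciart and Rora. They were chosen by name, as the rows carrying these 8 gene symbols, out of 16796 genes listed in the files. All 8 were listed in every library and all 8 passed the filter on low counts, which left 13244 genes. The livers came from 4 E4bp4-LKO mice (143, 144, 145 and 179), labelled as liver-specific knockouts of E4bp4, and from 4 WT mice (164, 165, 166 and 167). Both groups had been fed a NASH diet, which induces non-alcoholic steatohepatitis, for 20 weeks from 2 months of age, so the controls also carry the disease model and no liver on regular chow was analysed here. The title of the study concerns E4BP4 of hepatocytes and liver fibrosis, and the comparison asks which genes differ between knockout and control livers on this diet. The sources used here do not give the Cre driver, the deleted part of the gene, the sex and strain of the mice or the time of day at which the livers were taken. The mice were kept on a 12 hour light and 12 hour dark cycle, and the part that the time of day had in any value below was not tested.

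E4BP4 is a basic leucine zipper protein that binds D-box elements and represses transcription. DBP, TEF and HLF, the PAR bZIP family, bind the same elements and activate transcription, and in liver their abundance follows the time of day. The products of Bhlhe40 and Bhlhe41 (DEC1 and DEC2) and of Ciart (CHRONO) repress transcription driven by the CLOCK and BMAL1 complex at E-boxes, and RORα, the product of Rora, activates through elements that the repressors REV-ERBα and REV-ERBβ also bind. Through these ROR and REV-ERB elements the clock is known to act on Nfil3 itself.

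The promoter sequences below are shown because they hold motifs that factors of this circuit are known to bind. They are RefSeq sequences of mouse build GRCm38.p6 from the 250 bases before each annotated start, written 5′ to 3′ on the strand of the gene, with the motif in capitals. A promoter entry was matched for 7 of the 8 genes, and that of Bhlhe40 was not. For Nfil3 (chr13:52981040-52981139, minus strand) the capitals mark the core that RORs and REV-ERBs share, TAGGTCA, read here in its reverse orientation, 12 to 6 bases before the start. For the others the capitals mark E-boxes, CACGTG, which read alike on both strands: the 2 starts of Tef (chr15:81802521-81802576 and chr15:81811251-81811306, plus strand) hold 1 each, Bhlhe41 (chr6:145865543-145865598, minus strand) holds 1 and Ciart (chr3:95882242-95882369, minus strand) holds 3.
Nfil3: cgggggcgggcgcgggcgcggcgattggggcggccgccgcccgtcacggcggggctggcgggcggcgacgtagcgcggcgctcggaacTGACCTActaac
Tef, start 1: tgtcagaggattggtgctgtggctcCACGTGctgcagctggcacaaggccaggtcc
Tef, start 2: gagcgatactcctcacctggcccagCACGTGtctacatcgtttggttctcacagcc
Bhlhe41: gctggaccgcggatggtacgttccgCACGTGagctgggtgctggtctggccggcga
Ciart: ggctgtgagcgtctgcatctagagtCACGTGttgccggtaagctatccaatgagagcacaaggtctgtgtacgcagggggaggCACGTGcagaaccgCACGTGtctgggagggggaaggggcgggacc

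Among 32851 mouse promoters of the same length, 6.02% held the E-box and 2.23% the ROR and REV-ERB core on either strand. The strict D-box, TTATGTAA, stood in 0.819% of them and its variant with a CG centre, TTACGTAA, in 0.113%, and neither stood in the promoters of the 7 matched genes. Neither form was found for any of the reported D-box targets in liver compared below. Of the clock genes compared below, Per3 held 2 strict D-boxes, 205 to 198 and 158 to 151 bases before its start. That stretch (chr4:151044791-151044895, minus strand) is shown with the D-boxes in capitals. These matches describe the letters in the windows and are not evidence of binding.
Per3: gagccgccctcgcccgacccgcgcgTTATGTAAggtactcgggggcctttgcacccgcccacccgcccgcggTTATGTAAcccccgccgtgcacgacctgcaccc

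The authors gave each gene as an estimated read count, called expected count in the files, and as FPKM (fragments per kilobase of transcript, scaled to the size of the library). The libraries held 23805540 to 32290265 expected counts, and a detection floor of 3 counts corresponded to 0.0929 to 0.126 CPM (counts scaled to the library size). Differences were tested with edgeR's quasi-likelihood test on the rounded counts of all 13244 genes after TMM scaling, and an adjusted p under 0.05 (Benjamini-Hochberg) was counted as a change. CPM values below are TMM-scaled, and log2 fold changes are of E4bp4-LKO over WT livers, above 0 where the knockout livers were higher. Across all genes tested, 4.36% rose and 6.48% fell, 10.8% in all. TMM factors were 1.16 and 1.09 for WT mice 164 and 165 and 0.94 to 1.00 for the other livers. The median over all genes of the log2 fold change was 0.01, and -0.148 when TMM was left out, so the sign of small differences depends on the scaling. The hepatocyte markers Alb, Ttr, Apoa1, Apob, Tat, Serpina1c, Hnf4a and Ass1 were present in every liver, summing to 79904 to 99458 CPM in E4bp4-LKO livers and 62432 to 79928 CPM in WT livers.

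Of the 8 genes, Nfil3, which the knockout targets, fell, Tef and Bhlhe41 rose, and the other 5 did not pass the test. For comparison, 4.36% of all genes tested rose and 6.48% fell. The log2 fold change was positive for 7 of the 8, against 51.7% of all genes tested, and the median was 0.29 against 0.01 for all genes. Without TMM Hlf and Rora turned negative and the median of the 8 was 0.14. It was 0.19 without mouse 145, and 0.04 on FPKM over the 7 genes that passed the filter there. The groups did not overlap for 3 of the 8 genes, with Tef and Bhlhe41 higher in every E4bp4-LKO liver than in any WT liver and Nfil3 lower. Across all genes the groups did not overlap for 18.5%, all E4bp4-LKO livers being above all WT livers for 8.8% and below them for 9.68%.

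**Figure D1:**
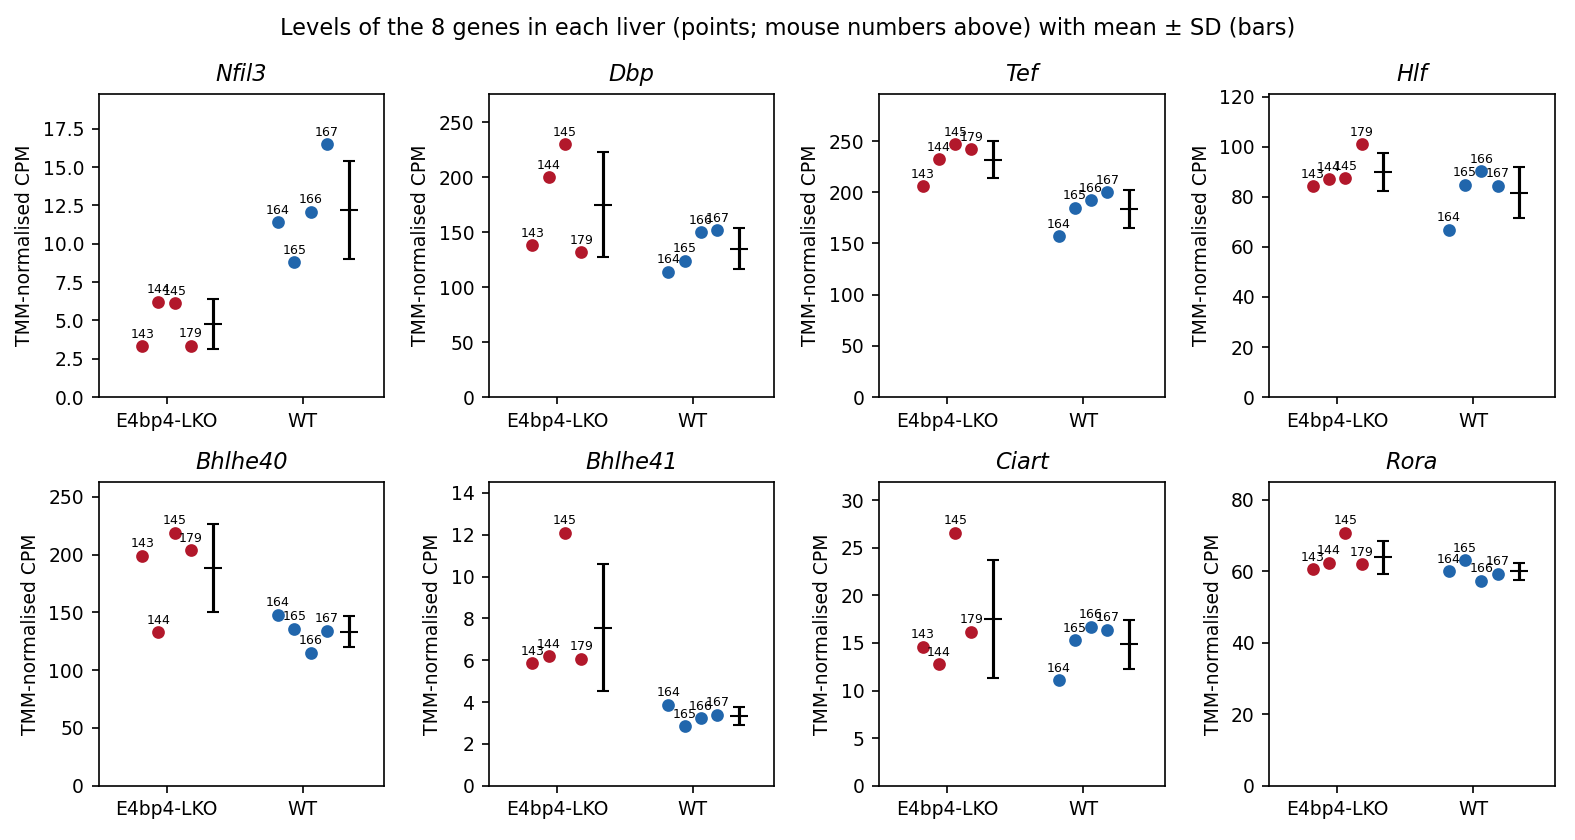
TMM-scaled CPM of the 8 genes (y axes, linear from 0) in each liver (points, with mouse numbers), E4bp4-LKO on the left in red and WT on the right in blue, with bars for the mean ± SD of 4 livers. The 4 E4bp4-LKO livers lie below all WT livers for Nfil3 and above them for Tef and Bhlhe41, and the groups overlap for the other 5 genes.

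Nfil3 (Entrez Gene 18030, chromosome 13), the gene that the knockout targets, had 3.33, 6.22, 6.14 and 3.35 CPM in E4bp4-LKO mice 143, 144, 145 and 179, against 11.4, 8.79, 12.1 and 16.5 CPM in WT mice 164, 165, 166 and 167. The highest E4bp4-LKO liver stood below the lowest WT liver. The means were 4.76 ± 1.64 CPM in E4bp4-LKO livers and 12.2 ± 3.2 CPM in WT livers (SD, n = 4 each). Nfil3 was thus 2.54-fold lower in E4bp4-LKO livers, with a log2 fold change of -1.35 ± 0.25 (SE, edgeR adjusted p = 0.0121). An exact two-sided permutation test of the CPM values over the 70 arrangements gave p = 0.0286, the smallest that 4 against 4 livers can give. Per length, Nfil3 stood at 1.59, 2.89, 2.87 and 1.56 FPKM in E4bp4-LKO livers and at 6.56, 4.72, 5.98 and 8.04 FPKM in WT livers.

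Nfil3 RNA was therefore detected in every E4bp4-LKO liver, in the least of them with 75 expected counts. These are values of whole liver, in which fewer cells of a type and less RNA per cell cannot be told apart. The deleted part of the gene is not known here, and the counts are per gene. They cannot tell intact Nfil3 RNA from RNA of the recombined gene that keeps other exons. The E4bp4-LKO livers also differed among themselves, mouse 144 having 1.87 times the level of mouse 143, and 93.7% of all genes varied less within that group. By the same ratio WT livers differed as much, the highest having 1.88 times the level of the lowest. E4BP4 is also known from natural killer and other lymphoid cells, whose 15 markers summed to 36.2, 23.4, 28.3 and 36.6 CPM in E4bp4-LKO livers and to 45.5, 45.2, 36.3 and 30.0 CPM in WT livers. None of the 12 lymphoid markers tested passed edgeR's test (1 higher and 1 lower at an unadjusted p under 0.05, and DESeq2 called Il7r lower), while Klrb1c, Ncr1 and Tbx21, which mark natural killer cells, were below the filter. The E4bp4-LKO livers with the most Nfil3, 144 and 145, were those with the lowest sums of lymphoid markers. What these cells contributed to the Nfil3 that remained was not tested.

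Of the 3 D-box activators, Tef rose modestly, while Dbp and Hlf, with log2 fold changes also above 0, did not pass the test. Tef (Entrez Gene 21685, chromosome 15) had 206, 232, 247 and 242 CPM in E4bp4-LKO livers, against 157, 185, 192 and 199.8 CPM in WT livers. Every E4bp4-LKO liver was above every WT liver, though mice 143 and 167 were close. The means were 232 ± 18.5 CPM in E4bp4-LKO livers and 184 ± 18.7 CPM in WT livers (SD, n = 4 each), a 1.26-fold difference with a log2 fold change of 0.34 ± 0.1 (SE, edgeR adjusted p = 0.0472, exact permutation p = 0.0286). The call was at the threshold. Without TMM the log2 fold change of Tef was 0.19 (adjusted p = 0.104), without WT mice 164 and 165 it was 0.25 (adjusted p = 0.176), and on log2(FPKM + 1), where the groups overlapped, it was 0.18 (limma adjusted p = 0.0982).

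Dbp (Entrez Gene 13170, chromosome 7), the PAR bZIP factor with the highest level per length (FPKM) but not by CPM, had 138, 199.7, 230 and 132 CPM in E4bp4-LKO livers, against 114, 124, 149.8 and 152 CPM in WT livers. Mice 144 and 145 stood above every WT liver, and mice 143 and 179 lay within the WT range. The mean was 175 ± 47.7 CPM in E4bp4-LKO livers and 135 ± 19 CPM in WT livers (SD, n = 4 each), with a log2 fold change of 0.38 ± 0.18 (SE, edgeR adjusted p = 0.205, exact permutation p = 0.229). An exon of Dbp overlaps Sphk2 on the opposite strand in GENCODE M21, and Tef, Bhlhe40, Bhlhe41 and Rora overlap antisense or unclassified transcripts that the files do not list. The sources used here do not state the strand of the libraries, so reads of such pairs may not be separated. Sphk2, the gene for a sphingosine kinase, had a log2 fold change of 0.16 (edgeR adjusted p = 0.444).

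Hlf (Entrez Gene 217082, chromosome 11) had 84.2, 86.9, 87.5 and 101 CPM in E4bp4-LKO livers, against 66.8, 84.8, 90.2 and 84.4 CPM in WT livers. WT mouse 164 was lowest and mouse 179 highest, and the groups overlapped. The log2 fold change was 0.14 ± 0.1 (SE, edgeR adjusted p = 0.39), and it was -0.01 without TMM and in both fits on FPKM.

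On the FPKM scale, which allows levels of different genes to be set side by side, Dbp, Tef and Hlf together reached 139.9, 178, 199 and 145 FPKM in E4bp4-LKO livers and 135, 144, 151 and 150 FPKM in WT livers. Dbp made up 59.1 ± 6.25% of this sum in E4bp4-LKO livers and 58.4 ± 1.72% in WT livers (SD, n = 4 each). The ratio of the summed activators to Nfil3 was 88, 61.5, 69.4 and 92.7 in E4bp4-LKO livers, against 20.6, 30.4, 25.2 and 18.7 in WT livers. The ratio averaged 77.9 ± 14.9 in E4bp4-LKO livers and 23.7 ± 5.22 in WT livers (SD, n = 4 each). Because Nfil3, the targeted gene, is its denominator, the ratio is a description and was not tested. The lowest ratio of an E4bp4-LKO liver, in mouse 144, came with the highest Nfil3 of that group. These are RNA levels, and the proteins were not measured here.

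**Figure D2:**
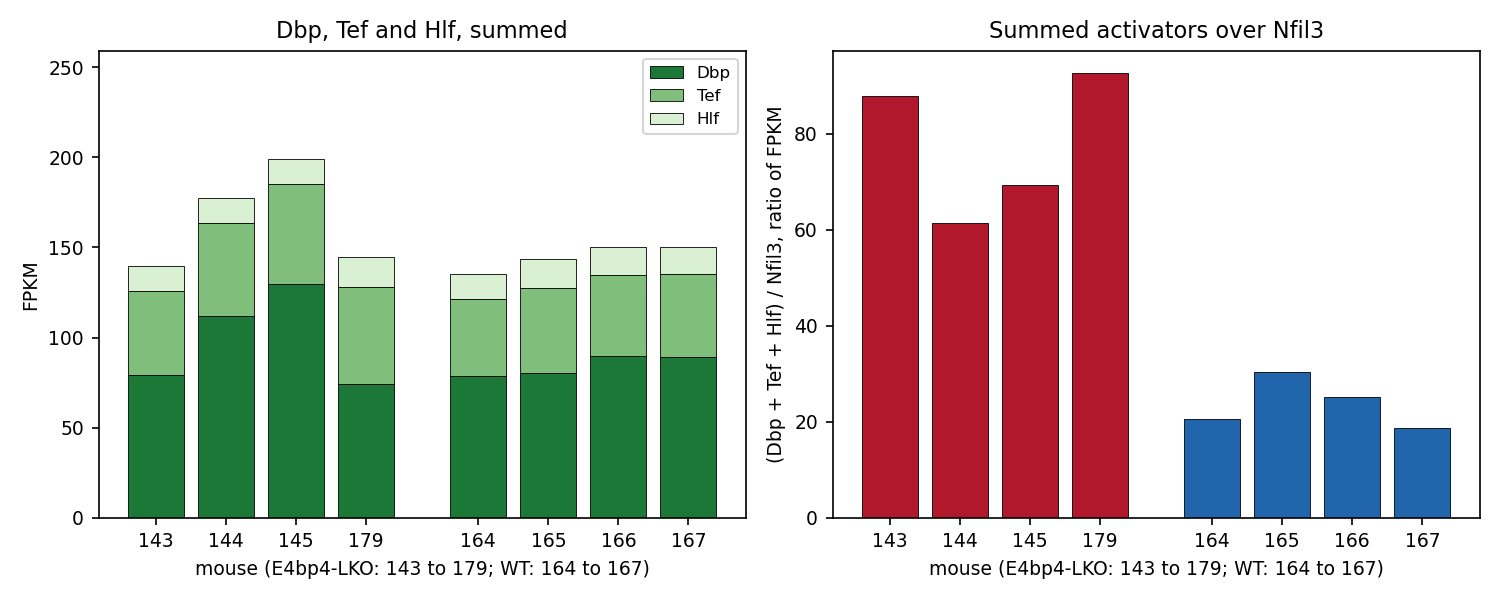
Left, deposited FPKM of Dbp, Tef and Hlf stacked for each liver (E4bp4-LKO mice left, WT mice right, y axis from 0). Right, that sum divided by the FPKM of Nfil3, which lies between 61.5 and 92.7 in E4bp4-LKO livers and between 18.7 and 30.4 in WT livers, whereas the sums themselves overlap.

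Of the E-box repressors, Bhlhe41 rose, Bhlhe40 was just short of the threshold and Ciart did not pass the test. Bhlhe41 (Entrez Gene 79362, chromosome 6) had 5.85, 6.19, 12.1 and 6.07 CPM in E4bp4-LKO livers, against 3.87, 2.84, 3.23 and 3.39 CPM in WT livers. Its E4bp4-LKO values were all above the WT values, and mouse 145 was 2.07 times as high as the lowest of its group. The means were 7.55 ± 3.03 CPM in E4bp4-LKO livers and 3.33 ± 0.429 CPM in WT livers (SD, n = 4 each), a 2.26-fold difference with a log2 fold change of 1.18 ± 0.24 (SE, edgeR adjusted p = 0.0147, exact permutation p = 0.0286). Its counts were low, at 92 to 329 per library. Without mouse 145 the log2 fold change was 0.86 and still passed the test, and without WT mice 164 and 165 it was 1.19 with an adjusted p of 0.0986.

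Bhlhe40 (Entrez Gene 20893, chromosome 6) had 199, 133, 219 and 204 CPM in E4bp4-LKO livers, against 148, 136, 115 and 134 CPM in WT livers. Mouse 144 lay within the WT range, and the other E4bp4-LKO livers were above it. The means were 189 ± 38.3 CPM in E4bp4-LKO livers and 133 ± 13.7 CPM in WT livers (SD, n = 4 each), with a log2 fold change of 0.5 ± 0.14 (SE, edgeR adjusted p = 0.0507, exact permutation p = 0.114). DESeq2 gave an adjusted p of 0.0101 for the same counts, and edgeR gave 0.0107 without mouse 144. The FPKM of Bhlhe40 over that of Bhlhe41 was 65.8, 41.8, 35.3 and 65.0 in E4bp4-LKO livers and 74.0, 92.2, 69.2 and 76.6 in WT livers, so Bhlhe40 remained by far the more abundant of the pair in both groups.

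Ciart (Entrez Gene 229599, chromosome 3) had 14.6, 12.8, 26.6 and 16.2 CPM in E4bp4-LKO livers, against 11.1, 15.3, 16.7 and 16.4 CPM in WT livers. Mouse 145 stood above all other livers, which shared a single range. The log2 fold change was 0.24 ± 0.23 (SE, edgeR adjusted p = 0.533), and without mouse 145 it was -0.03 (adjusted p = 0.929).

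Rora (Entrez Gene 19883, chromosome 9), an activator of the clock, was the least variable of the 8 genes, with 60.6, 62.4, 70.8 and 62.0 CPM in E4bp4-LKO livers and 60.0, 63.1, 57.4 and 59.3 CPM in WT livers. The groups overlapped, with mouse 145 again highest. The log2 fold change was 0.09 ± 0.07 (SE, edgeR adjusted p = 0.425) and turned to -0.07 without TMM.

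**Figure D3:**
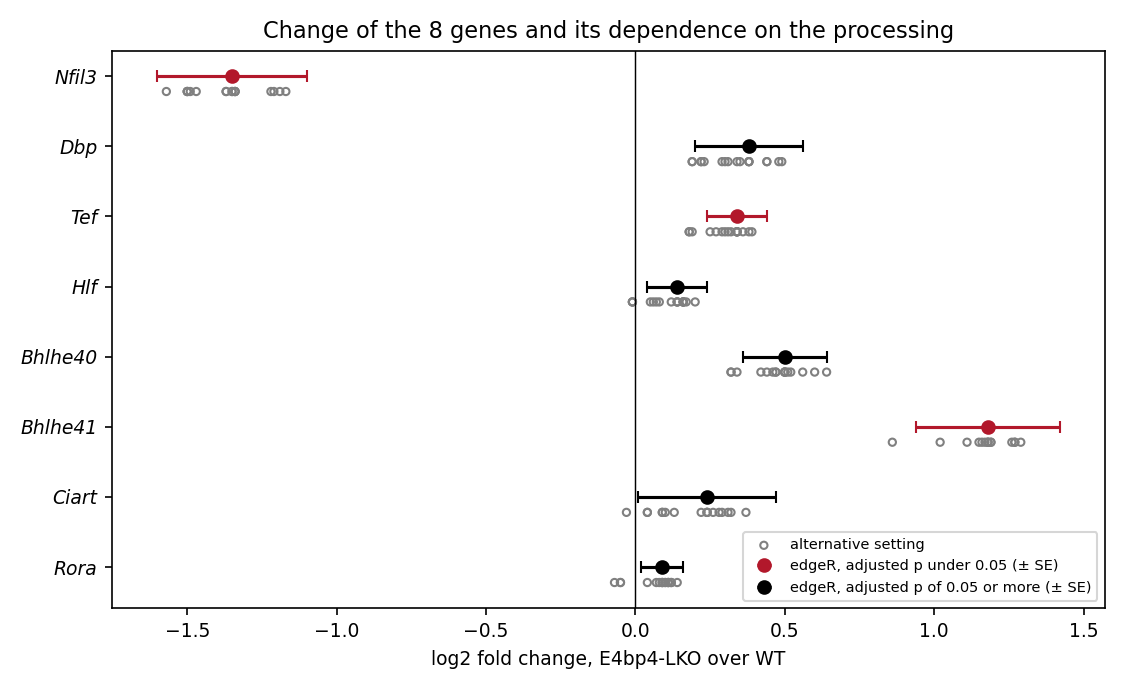
Log2 fold change of each gene, E4bp4-LKO over WT (x axis), as edgeR estimates with SE bars (red, adjusted p under 0.05; black, 0.05 or more), and under each other processing of the data or with mice left out (open grey points). Nfil3 stays between -1.57 and -1.17 and Bhlhe41 between 0.86 and 1.29, while the points of Hlf, Ciart and Rora lie on both sides of 0.

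Ordered by FPKM, the E4bp4-LKO livers had Dbp highest at 98.9 ± 26.6, then Bhlhe40 at 57.0 ± 11.7, Tef at 51.6 ± 3.71, Hlf at 14.8 ± 1.17, Ciart at 12.0 ± 4.22, Rora at 5.7 ± 0.392, Nfil3 at 2.23 ± 0.754 and Bhlhe41 at 1.17 ± 0.465 (SD, n = 4). Neighbours whose ranges overlapped in E4bp4-LKO livers were Bhlhe40 and Tef, Hlf and Ciart, and Nfil3 and Bhlhe41. In WT livers Dbp was also highest, at 84.5 ± 5.79 FPKM, followed by Tef at 45.4 ± 1.95, Bhlhe40 at 45.2 ± 7.67, Hlf at 14.9 ± 1.18, Ciart at 11.3 ± 1.31, Nfil3 at 6.32 ± 1.38, Rora at 5.94 ± 0.601 and Bhlhe41 at 0.583 ± 0.106. Here the ranges overlapped for Tef and Bhlhe40, and for Nfil3 and Rora. In rank, Nfil3 was seventh of the 8 genes in E4bp4-LKO livers and sixth in WT livers, where it stood beside Rora.

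Within the E4bp4-LKO group, the 8 genes differed in spread. The SD of log2 CPM among these livers was 0.51 for Nfil3, 0.5 for Bhlhe41, 0.46 for Ciart, 0.39 for Dbp and 0.33 for Bhlhe40. It was 0.12 for Tef, 0.12 for Hlf and 0.1 for Rora, against a median of 0.16 over all genes. Mouse 145 alone was high for Bhlhe41 and Ciart, and mouse 144 alone was low for Bhlhe40. Among WT livers the SD was 0.37 for Nfil3, 0.18 for Bhlhe41, 0.27 for Ciart, 0.21 for Dbp and 0.15 for Bhlhe40. It was 0.15 for Tef, 0.19 for Hlf and 0.06 for Rora there, so the genes were not ordered alike in the 2 groups. Mouse 145 was the highest of the 8 livers for 6 of the 8 genes (Dbp, Tef, Bhlhe40, Bhlhe41, Ciart and Rora), as it was for 13.6% of all genes tested, and for 5 of them on library totals. WT mouse 164 was the lowest for Dbp, Tef, Hlf and Ciart, as it was for 22.5% of all genes, and on library totals for Tef and Hlf. Mouse 145 had the highest sum of hepatocyte markers, 99458 CPM, and WT mouse 164 the lowest, 62432 CPM. The part that these sums had in the levels of the 8 genes was not tested.

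The core clock around these factors did not pass the test in any gene. Of 16 core clock genes 14 were tested, of which 0 rose and 0 fell by edgeR, beside 4.36% and 6.48% of all genes. At an unadjusted p under 0.05, 4 were higher, Per3, Cry1 and Cry2 among them, and 0 were lower. DESeq2 called Per3 and Cry1 higher, and without TMM edgeR, and on FPKM limma, called 1 gene, Csnk1d, a kinase of the PER proteins, as lower. The median log2 fold change of the 14 was 0.07 and turned to -0.09 without TMM, to -0.06 on FPKM and to -0.06 without mouse 179. Rorb was not listed in any library, and Npas2, a paralogue of Clock, was below the filter with 1 to 12 expected counts in E4bp4-LKO livers and 5 to 17 in WT livers.

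Among the clock repressors, Cry1 averaged 11.9 ± 1.32 CPM in E4bp4-LKO livers and 8.64 ± 1.55 CPM in WT livers, with a log2 fold change of 0.46 ± 0.14 (SE, edgeR adjusted p = 0.0523). Per3, whose promoter holds the D-boxes shown above, had 30.9, 37.5, 55.4 and 37.7 CPM in E4bp4-LKO livers, against 26.7, 29.2, 30.2 and 31.1 CPM in WT livers. Mouse 143 lay within the WT range and mouse 145 was highest. The log2 fold change of Per3 was 0.46 ± 0.15 (SE, edgeR adjusted p = 0.0776). Cry1 passed the test when WT mouse 166 was left out, and Per3 when mouse 143 was. Cry2 had a log2 fold change of 0.31 (edgeR adjusted p = 0.148). Nr1d1, which encodes REV-ERBα, had 68.9, 99.8, 122 and 69.0 CPM in E4bp4-LKO livers and 80.7, 68.2, 71.0 and 74.4 CPM in WT livers (log2 fold change 0.29, edgeR adjusted p = 0.311). Like Dbp, it was high in mice 144 and 145 and not in mice 143 and 179. Arntl, the gene for BMAL1, was low in every liver, at 1.51 ± 0.19 CPM in E4bp4-LKO livers and 1.93 ± 0.339 CPM in WT livers (log2 fold change -0.36, edgeR adjusted p = 0.277).

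**Figure D4:**
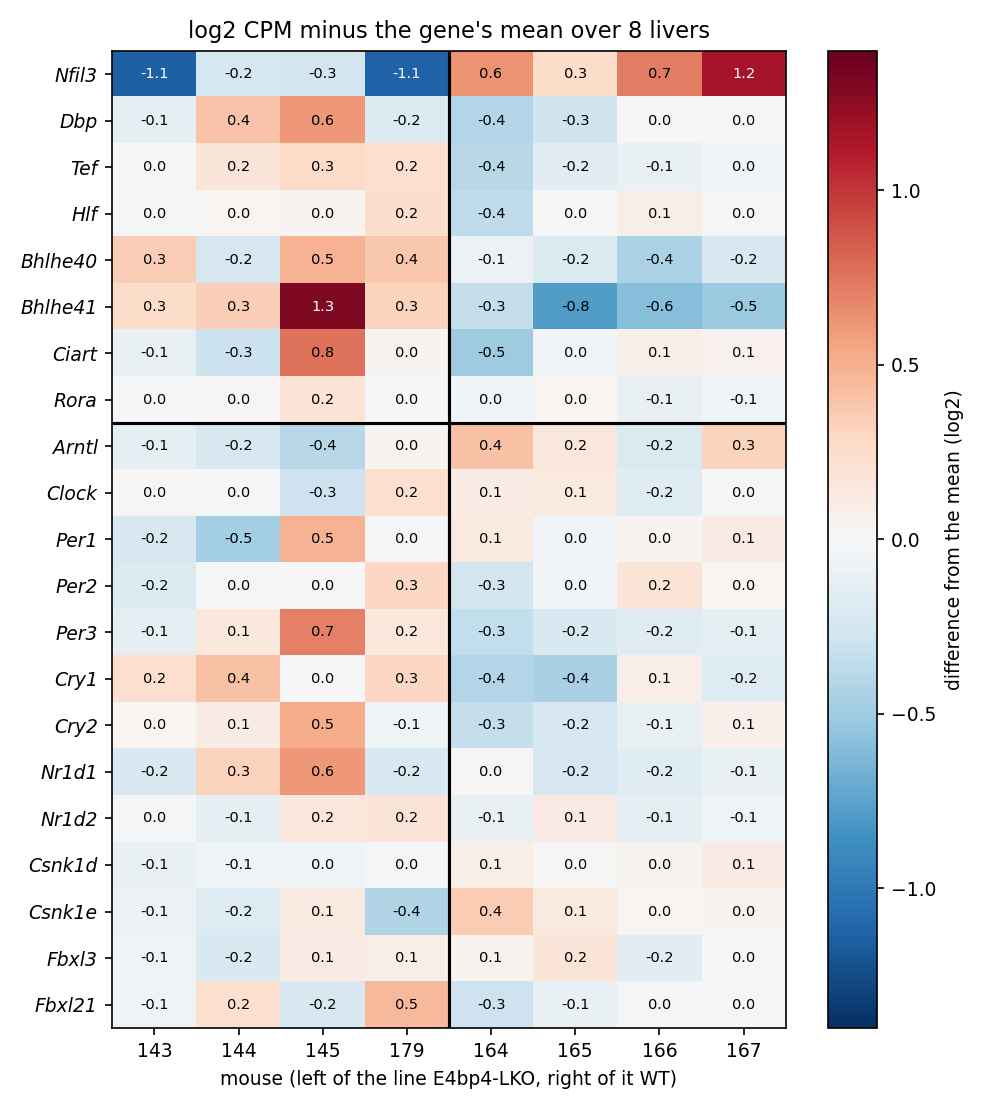
Log2 CPM of the 8 genes (above the line) and of core clock genes that were tested (below it) in each liver, minus each gene's mean over the 8 livers (colour and number in each cell), E4bp4-LKO mice on the left and WT mice on the right. Nfil3 is below its mean in all 4 E4bp4-LKO livers, and mouse 145 is the highest of the 8 livers for 6 of the 8 genes and for Per1, Per3, Cry2 and Nr1d1.

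Of 10 genes reported elsewhere as D-box targets in liver, 1 rose (Cyp3a11), 1 fell (Cyp2a4) and 8 did not pass the test. Of all genes tested, 4.36% rose and 6.48% fell. The median log2 fold change of the 10 was 0.06, turning to -0.09 without TMM. Cyp3a11, which encodes a major drug-oxidising cytochrome P450, had 9335, 9222, 8469.9 and 10938 CPM in E4bp4-LKO livers and 3334, 3575, 3005 and 2837 CPM in WT livers. Its groups were far apart, with a log2 fold change of 1.57 ± 0.13 (SE, edgeR adjusted p = 0.000181). The lowest and highest expected counts of Cyp3a11 were fractional, at 81116.95 and 280012.91, and how its reads were assigned is not known. Cyp2a4, a steroid hydroxylase, had 1.85, 2.04, 4.04 and 6.34 CPM in E4bp4-LKO livers and 57.7, 55.7, 19.6 and 40.4 CPM in WT livers, with a log2 fold change of -3.64 ± 0.49 (SE, edgeR adjusted p = 0.00606). The nearly identical Cyp2a5 had a log2 fold change of -0.02 (edgeR adjusted p = 0.957). How reads were divided between the pair is not known, so the value of Cyp2a4 is uncertain, and its call was lost without WT mice 164 and 165. Nr1i3, the gene for the xenobiotic receptor CAR, averaged 118 ± 9.34 CPM in E4bp4-LKO livers and 77.4 ± 28.2 CPM in WT livers without overlap (log2 fold change 0.6, edgeR adjusted p = 0.137), and DESeq2 called it higher. Its groups were only narrowly apart. The lowest E4bp4-LKO liver had 105 CPM, against 42.8, 66.0, 98.0 and 103 CPM in WT mice 164, 165, 166 and 167. Cyp7a1, the rate-limiting enzyme of bile acid synthesis, averaged 304 ± 58.3 CPM in E4bp4-LKO livers and 169 ± 88.2 CPM in WT livers (log2 fold change 0.84, edgeR adjusted p = 0.179). The groups overlapped for Cyp7a1, with WT mice 164 and 165 again lowest. Alas1, Por, Cyp2b10, Fgf21 and Abcb1a did not pass the test either, with log2 fold changes of -0.09, 0.44, 0.14, -0.62 and -0.05, although Fgf21 was called lower when mouse 179 was left out.

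Of 6 rhythmic liver outputs 0 rose and 0 fell by edgeR, 1 being higher and 1 lower at an unadjusted p under 0.05, and DESeq2 called 0. Their median log2 fold change was 0.11, turning to -0.05 without TMM. The deubiquitinase gene Usp2 averaged 99.4 ± 19.4 CPM in E4bp4-LKO livers and 75.7 ± 11.9 CPM in WT livers (log2 fold change 0.39, edgeR adjusted p = 0.12). Lpin1, which encodes a phosphatidic acid phosphatase, averaged 151 ± 74.4 CPM in E4bp4-LKO livers and 239 ± 24.7 CPM in WT livers (log2 fold change -0.66, edgeR adjusted p = 0.165), and voom with sample weights, limma on FPKM and edgeR without mouse 179 called it lower. Wee1 and Nampt had log2 fold changes of 0.09 and 0.14.

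The C/EBP family, bZIP factors whose sites resemble the D-box, held 1 gene that fell among 6 tested, beside 6.48% of all genes. The median log2 fold change of the 6 was -0.05. Cebpd, an acute-phase factor, had 11.5, 13.6, 17.2 and 11.9 CPM in E4bp4-LKO livers and 26.4, 20.6, 25.2 and 26.2 CPM in WT livers, with a log2 fold change of -0.86 ± 0.13 (SE, edgeR adjusted p = 0.00495). Cebpa, a main regulator of hepatocyte genes, averaged 596 ± 91.8 CPM in E4bp4-LKO livers and 456 ± 41.9 CPM in WT livers (log2 fold change 0.39, edgeR adjusted p = 0.0665). Cebpe had a log2 fold change of 0.31 (edgeR adjusted p = 0.0661). For both, all E4bp4-LKO livers were above all WT livers, and DESeq2 called both higher, as edgeR did Cebpa without mouse 143. Cebpb, Cebpg and Ddit3 had log2 fold changes of -0.12, 0.01 and -0.21 and did not pass the test.

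The files also assign Gene Ontology terms, and 3 of those that several of the 8 genes carry were looked at after their values had been seen. Of 65 tested genes under circadian rhythm, 4 rose (6.15%) and 3 fell (4.62%), beside 4.36% and 6.48% of all genes. Besides Bhlhe41, those that rose were Cyp7b1, an oxysterol hydroxylase of the alternative bile acid pathway, the nuclear receptor coactivator gene Ncoa2 and the serotonin transporter gene Slc6a4. Slc6a4 was near the floor, with 6 to 24 expected counts per library. Cyp7b1 averaged 106 ± 26.2 CPM in E4bp4-LKO livers and 41.6 ± 12.3 CPM in WT livers (log2 fold change 1.34, edgeR adjusted p = 0.0115). Besides Nfil3, those that fell were Ntrk2, a neurotrophin receptor gene, and Timeless. Ntrk2 averaged 15.2 ± 4.35 CPM in E4bp4-LKO livers and 54.7 ± 13.7 CPM in WT livers (log2 fold change -1.85, edgeR adjusted p = 0.00309). Under circadian regulation of gene expression, 2 of 43 tested genes rose (Bhlhe41 and Ncoa2) and 0 fell. Under E-box binding, 2 of 22 rose (Bhlhe41 and Zeb1) and 0 fell.

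By the mean absolute difference between centred log2 CPM profiles over the 8 livers, among 10575 genes with a mean of at least 1 FPKM, the profile nearest to Nfil3 was that of Plac9a at 0.238. It was followed by Cebpd at 0.296, Egr1, an immediate early factor, at 0.303, Gas6, a ligand of the TAM receptor kinases, at 0.311 and the protease gene Tmprss2 at 0.316. These 5 genes all fell in E4bp4-LKO livers; the measure favours genes that differ between the groups as Nfil3 does. Nearest to Dbp were Odf3b at 0.045, Fgg at 0.047, Cbx2 at 0.048, Fga at 0.057 and Fgb at 0.06. Fga, Fgb and Fgg encode the chains of fibrinogen, and none of the 5 passed the test. Among the 8 genes themselves the nearest pair was Tef and Hlf at 0.098. The profiles were not scaled for spread, so genes that vary little, such as Tef, Hlf and Rora, lie near one another by this measure. Dbp was nearest to Tef at 0.178, Ciart to Dbp at 0.197, Rora to Hlf at 0.126, Bhlhe40 to Tef at 0.251 and Bhlhe41 to Bhlhe40 at 0.349. Nfil3 was 0.733 from its nearest, Rora, the least variable of the 8. As the targeted gene, and the only one of the 8 that was lower in E4bp4-LKO livers, Nfil3 is bound to lie far from the others. Its distance is no separate result. All these measures share the same 8 libraries.

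Some markers of other liver cell types also differed between the groups. The counts below stand beside 4.36% of all genes that rose and 6.48% that fell. Of 12 Kupffer cell and macrophage markers 6 fell, and the list summed to 613 to 828 CPM in E4bp4-LKO livers and 836 to 1142 CPM in WT livers. At an unadjusted p under 0.05, 2 of these markers, Timd4 and Marco, were higher, and Timd4 was called higher by DESeq2 and by edgeR without WT mouse 164. The count that fell was 4 without WT mouse 165, without mouse 144 or without mouse 145, and 3 without WT mice 164 and 165. Of 10 stellate cell markers 4 fell, with sums of 679 to 873 CPM in E4bp4-LKO livers and 933 to 1551 CPM in WT livers. This count rested on single livers, being 1 without WT mouse 165, without mouse 144 or without mouse 179, 2 without mouse 143 or without mouse 145, and 0 without WT mice 164 and 165, and DESeq2 called 7. Of 5 cholangiocyte markers tested Spp1 fell, which macrophages also express, with sums of 77.7 to 104 CPM in E4bp4-LKO livers and 191 to 472 CPM in WT livers. All 5 were lower at an unadjusted p under 0.05 and DESeq2 also called Krt7 and Epcam, but the median log2 fold change of -1.29 was -0.66 without WT mouse 164 and -0.28 without WT mice 164 and 165. Of 5 neutrophil and monocyte markers tested Ccr2 and Plac8 fell, with sums of 12.9 to 23.8 CPM in E4bp4-LKO livers and 20.9 to 35.6 CPM in WT livers, and Ly6g was not listed. Ccr2 lost its call when WT mouse 164 or 165 or any E4bp4-LKO mouse was left out, and both genes lost it without WT mice 164 and 165 together. The endothelial markers summed to 321 to 451 CPM in E4bp4-LKO livers and 331 to 349 CPM in WT livers, and 0 of 8 passed edgeR's test (1 higher at an unadjusted p under 0.05, Kdr, which DESeq2 called). Of the 8 hepatocyte markers Serpina1c rose, and DESeq2 also called Apob higher and Tat lower. The lowest and highest expected counts of Serpina1c were fractional, at 84884.46 and 245138.64, and how its reads were assigned is not known. The part that these differences had in the values of Nfil3, Tef and Bhlhe41 was not tested.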

How the data were processed

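RNA of 8 whole livers was sequenced after enrichment of mRNA, per the labels' protocols, and reads were aligned with HISAT2, per the submitters' processing notes. The sources used here do not name the quantifier, genome build or annotation. The authors deposited expected counts, which are not normalized (25.9% to 27.3% of entries per library are fractional), and FPKM, scaled by the authors for transcript length and library total, with a lowest value of 0.01. A gene not listed in a file was taken as 0 there, and 26 isoform entries were added to their gene by accession. Each library came from its own mouse.

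Expected counts were rounded and tested in R 4.3.3 with edgeR 4.0.16 (filterByExpr with minimum counts of 10 and 15 in total, TMM, robust quasi-likelihood fit, two-sided). The SE is the log2 fold change over the square root of F. DESeq2 1.42.0 and limma 3.58.1 (voom with sample weights, and limma with trend on log2(FPKM + 1) or log2(FPKM + 0.1) keeping genes that reached 1 FPKM in 4 or more livers) were alternatives, as were library totals, other filters (none, or 5 CPM in at least 4 livers), an adjusted p under 0.1 and leaving out mice. Scripts were tested on simulated data. Floors cover counting error only, since reads are not independent molecules.

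The 8 genes and all lists were chosen with earlier results of these data known. Named genes are the 8, up to 4 of each list with the smallest p, and the 5 nearest to Nfil3 and to Dbp. Others were named after their values were seen. A core clock gene that was tested and counted is not reported here by name. Motifs were searched on both strands of RefSeq promoters.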

Additional observations from a re-analysis of the deposited data

Results flagged for a closer look

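Of the 16 groups of 4 livers formed by the 8 genes and both genotypes, 1 held a liver far from the others. Bhlhe41 stood at 12.1 CPM in E4bp4-LKO mouse 145, and the gap to the next liver took 0.945 of the range of its group, above the 95% critical value of Dixon's test for 4 samples. Chance gives about 1 such liver in 20 groups.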

How the results depend on the processing

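The fall of Nfil3 kept its direction and its call in all 17 alternatives (log2 fold change -1.57 to -1.17, and -1.5 to -1.17 with 1 mouse left out). Dbp stayed above 0 and without a call in 17 (0.22 to 0.49 with 1 mouse left out). Tef no longer passed on library totals (0.19), without a low-count filter (0.34, adjusted p = 0.052), on log2(FPKM + 1) and log2(FPKM + 0.1) (0.18 in both) and without WT mice 164 and 165 together (0.25). With 1 mouse left out it was 0.27 to 0.39 and passed in 2 of 8 fits. Bhlhe40 passed with DESeq2 (0.50), with DESeq2 size factors (0.50), without the filter (0.50) and with voom (0.52). With 1 mouse left out it was 0.42 to 0.64. Bhlhe41 passed in 14 of 15 alternatives, the exception being the fit without WT mice 164 and 165 (1.19). With 1 mouse left out it was 0.86 to 1.29, and on FPKM it was below the filter, so no value was had. Hlf turned to -0.01 on library totals and in both FPKM fits (0.06 to 0.2 with 1 mouse left out). Rora turned to -0.07 on library totals and to -0.05 in both FPKM fits (0.04 to 0.12). Ciart turned to -0.03 without mouse 145 (to 0.37 at most). The cause of these shifts was not tested. Over all genes 1436 passed. DESeq2 called 2238, an adjusted p under 0.1 gave 2488, and leaving out WT mice 164 and 165 left 387. With 1 mouse left out the count was 506 to 1539, being 933 without WT mouse 164, 633 without WT mouse 165, 506 without mouse 144, 735 without mouse 145 and 757 without mouse 179. Of the calls 59.7% were lower, and 85.1% on library totals. No paired analysis was possible because the mouse numbers are not shared between the groups. Values of genes with few counts, such as Npas2 with 1 to 17 per library, are less certain.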
